A study of Mus musculus with 30 samples.

Results

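The exons described here are alternative exons whose length is not a multiple of 3, so that skipping or including them shifts the reading frame of a coding transcript. They were chosen by the inclusion level in wild-type cells: an exon of at least 28 nt, of a length that 3 does not divide, with at least 10 reads in all 6 wild-type (WT) libraries and a mean percent spliced in (PSI, the percentage of transcripts that include the exon) of 10 to 90 over these libraries. This gave 1915 exons in 1482 genes out of 661327 splicing events of all kinds. Of these genes, 1176 held 1 such exon, 229 held 2 and 77 held 3 or more, and 0 of the exons overlapped another. Exons that met the same limits but had a length divisible by 3 numbered 1930 and are called frame-preserving exons below.

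An exon that shifts the frame usually brings a stop codon into an early position in one of the transcript forms. When a ribosome stops well before the last exon-exon junction, the exon junction complexes still bound downstream recruit the UPF proteins and the transcript is degraded, a process called nonsense-mediated decay. Cells use such exons to switch genes on and off during development: an exon needed for the full-length protein can be skipped where the protein is not made, and a "poison" exon that holds a stop codon can be included for the same effect. In neurons, the scaffold gene Dlg4 and the GABA-B receptor gene Gabbr1 are textbook examples, both under control of the polypyrimidine tract binding proteins.

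The libraries hold polyA-selected RNA of 3 stages of a mouse differentiation: CGR8 cells, an embryonic stem cell line (ESC), embryoid bodies grown with 6 µM retinoic acid (EB8), and neurons 7 days after plating of cells from embryoid bodies given the same 6 µM retinoic acid (DIV7). The 4 edited lines, made with CRISPR-Cas9 and labelled as clonal, were Rbm38KO (a deletion within Rbm38), Puf60_pEx5_HOM (Puf60 exon 5 made constitutive on both alleles), Puf60_pEx5_HET (the same on 1 allele) and Puf60_mEx5_HOM (Puf60 exon 5 deleted on both alleles), and WT was their unedited parent. Rbm38 and Puf60 encode RNA-binding proteins with roles in splicing. Each of the 15 groups had 2 libraries, replicates A and B, giving 30 libraries. Which library came from which clone is not given in the labels. The error behind each p-value is therefore the scatter among these particular libraries, and some of it may be technical.

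Because WT libraries chose the exons, all WT values are given as a description with no test, and every test used the 24 libraries of the edited lines. The limits lay in a dense range of values: Ip6k1 at 10.10 and Ivns1abp at 10.13 were just inside the lower limit and Cux1 at 9.96 and Anapc16 at 9.94 just outside, while Ttll3 and Tmem57 at 90 were just inside the upper limit and Gin1 at 90.01 and Rai1 at 90.02 just outside (mean WT PSI). Spliced reads per library numbered 28375996 to 38571969 for ESC, 26152711 to 30675968 for EB8 and 23204150 to 28655479 for DIV7, and a chosen exon had a median of 115 reads per WT library. Of the 1915 exons, 1676 had at least 10 reads in all 24 edited libraries, and 1674 of these, in 1302 genes, entered the fit. Their replicates differed by a median of 3.44 to 4.47 PSI points within a group.

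The lines and stages were checked before the results. Spliced Rbm38 reads numbered 0 in all 6 Rbm38KO libraries, against 127 to 2820 in the other libraries. Exon 5 of Puf60 had a PSI of 93.2 to 99.0 in Puf60_pEx5_HOM, 49.2 to 64.9 in Puf60_pEx5_HET and 7.5 to 13 in Puf60_mEx5_HOM, which is above 0 in a line labelled as lacking it, against 20.7 to 44.0 in WT. Puf60_mEx5_HOM libraries held 0 reads over 4 Y-linked genes, against 19748 to 28493 reads summed over the libraries of each other line. Summed ESC markers (4 of 5 measured) were 2250 to 3110 CPM at ESC and at most 159 CPM later, and summed neuron markers were 2210 to 2910 CPM at DIV7. The neurons are labelled glutamatergic, and the summed GABAergic and glycinergic markers at DIV7 were at 588 to 915 CPM and the glutamatergic markers at 449 to 674 CPM. Summed fibroblast markers at DIV7 ranged from 273 to 4230 CPM. In such mixed samples, a change of inclusion within a cell type and a change in the share of cells of each type cannot be told apart, nor can fewer cells of a type and less RNA per cell.

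The name frame-breaking holds for part of the exons when they are set on the GENCODE vM21 annotation. Of the 1915, 865 (45.2%) were coding exons of an annotated coding transcript, 338 (17.7%) lay in a 5' UTR, 5 in a 3' UTR and 108 held the start codon. Another 136 lay within a coding region as exons of other annotated transcripts, 197 lay there without an annotated exon, 73 were exons of other transcript types alone, 10 were first, last or incomplete, and 183 had no annotated place. For 1001 exons (52.3%) both forms could be read from the annotated start codon, with the neighbouring exons joined directly when the exon was left out. A stop was called premature when it lay more than 55 nt before the last exon-exon junction.

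In this reading, 619 exons (32.3%) left a premature stop when skipped, 117 (6.11%) gave one when included, 252 (13.2%) gave none in either form, 1 gave one in both and 12 had another reading. The other 914 exons (47.7%) were not read. Among the 117 exons with a premature stop on inclusion, 87 (74.4%) held the stop within the exon itself. Among the 1930 frame-preserving exons, 6 (0.311%) left a premature stop when skipped, 40 (2.07%) gave one when included and 1367 (70.8%) gave none in either form. A premature stop in one of the forms was thus read for 619 exons on skipping and 117 on inclusion, and for UTR exons and unread exons the name describes length alone. The reading assumes that the exon alone changes; where neighbouring exons are also alternative, the true frame can differ.

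The sequences of exons on which the results below turn are shown 5' to 3', from GENCODE vM21 transcripts on GRCm38. The first 3 are exons that hold their own stop codon, which is in capitals. They lie at chr5:33871407-33871501 (plus strand, Nsd2, 95 nt), chr14:74793127-74793184 (minus strand, Lrch1, 58 nt) and chr10:105836127-105836220 (minus strand, Mettl25, 94 nt). All 3 lie within the coding region and are absent from the annotated coding transcript that was read.
Nsd2: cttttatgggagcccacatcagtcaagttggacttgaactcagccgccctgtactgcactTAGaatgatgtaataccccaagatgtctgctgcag
Lrch1: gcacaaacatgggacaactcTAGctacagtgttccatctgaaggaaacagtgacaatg
Mettl25: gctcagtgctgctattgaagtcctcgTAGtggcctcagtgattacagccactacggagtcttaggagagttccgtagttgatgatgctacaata

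The next exons work the other way round. Each is a coding exon, and skipping it moves the frame of the following exons, so that a stop is read further on. For Gabbr1 the 151-nt exon (chr17:37067214-37067364, plus strand) is shown with capitals on the bases that complete the codon begun in the exon before. A following exon (chr17:37067776-37067908) carries, in capitals, the stop read in the shifted frame, 827 nt before the last junction.
Gabbr1 exon: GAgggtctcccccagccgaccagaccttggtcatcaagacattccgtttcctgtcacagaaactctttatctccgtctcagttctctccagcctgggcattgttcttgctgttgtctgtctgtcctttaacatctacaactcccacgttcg
Gabbr1 stop on skipping: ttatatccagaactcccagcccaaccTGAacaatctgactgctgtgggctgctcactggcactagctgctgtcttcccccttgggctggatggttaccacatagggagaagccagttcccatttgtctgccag

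Dlg4 and Ogdh have exons of 110 and 103 nt (chr11:70043658-70043767 and chr11:6316978-6317080, both plus strand) that begin with a whole codon and are therefore shown in lower case. The stop read on skipping (capitals) lies 83 nt before the last junction in Dlg4 (chr11:70044276-70044367) and 2095 nt before it in Ogdh (chr11:6339109-6339255).
Dlg4 exon: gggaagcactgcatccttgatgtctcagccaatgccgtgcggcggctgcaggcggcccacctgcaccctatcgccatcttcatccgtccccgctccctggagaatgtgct
Dlg4 stop on skipping: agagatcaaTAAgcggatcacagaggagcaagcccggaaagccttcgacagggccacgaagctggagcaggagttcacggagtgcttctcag
Ogdh exon: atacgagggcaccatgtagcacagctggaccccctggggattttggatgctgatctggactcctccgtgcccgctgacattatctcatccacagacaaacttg
Ogdh stop on skipping: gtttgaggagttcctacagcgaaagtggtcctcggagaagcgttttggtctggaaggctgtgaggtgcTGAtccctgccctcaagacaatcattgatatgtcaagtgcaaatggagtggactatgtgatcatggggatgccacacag

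Srgap3 held a pair of such exons, of 31 nt (chr6:112750381-112750411) and 103 nt (chr6:112754571-112754673), both on the minus strand and both in the annotated coding sequence. They are shown together because their inclusion moved in opposite directions. Both lengths leave the same remainder when divided by 3, both exons complete a codon with 1 base (capital), and skipping either alone leads to the same stop codon. A transcript that holds one of them and lacks the other has the same frame after both, whichever it holds, so the stop read on skipping one does not describe an exchange of the exons.
Srgap3 31 nt: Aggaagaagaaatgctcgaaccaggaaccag
Srgap3 103 nt: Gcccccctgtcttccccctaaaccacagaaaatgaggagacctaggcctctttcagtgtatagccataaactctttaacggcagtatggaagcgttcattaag

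The exons shared further features. Their median length was 103 nt (28 to 5425 nt), against 93 nt for frame-preserving exons, and 984 had a remainder of 1 and 931 a remainder of 2 after division by 3. The median of their mean WT PSI was 69.6, against 54.4 for frame-preserving exons, and 948 (49.5%) lay between 70 and 90, against 677 (35.1%). Among exons of at least 28 nt with enough WT reads, 2.92% of the 65474 with a frame-shifting length fell within the PSI limits, against 4.7% of the 41063 with a frame-preserving length. These values come from the libraries that chose the exons and are a description. Inclusion in the groups was alike in its middle and less so in its spread. Over the 5 lines, the median PSI of the 1674 fitted exons ran between 71.0 and 71.8 for ESC, between 69.2 and 72.0 for EB8 and between 65.7 and 67.0 for DIV7. Exons with a group mean of 10 to 90 made up between 70.2% and 72.0% of them in ESC groups, between 77.1% and 82.7% in EB8 groups and between 76.8% and 81.4% in DIV7 groups. The host genes had medians between 12.39 and 12.75 RPKM (ESC), 13.88 and 14.61 RPKM (EB8) and 13.79 and 14.04 RPKM (DIV7), where RPKM is the authors' single value per group.

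The first comparison asked which exons changed between stem cells and embryoid bodies, with 8 EB8 libraries against 8 ESC libraries averaged over the edited lines. Inclusion rose at 299 exons (17.9%) and fell at 290 (17.3%) of 1674, where a call needs a Benjamini-Hochberg adjusted p under 0.05 in limma over all 19980 events and a difference of at least 10 PSI points. Over all 19980 events, 11% were called higher and 6.99% lower. A limit on the WT mean over the 3 stages admits exons near 0 at one stage and near 100 at another, so a share above that background is partly fixed by the rule. Frame-preserving exons, chosen under the same limits, were called higher in 436 of 1725 (25.3%) and lower in 367 (21.3%). The EB8 and ESC libraries did not overlap at 177 of the 299 exons and at 168 of the 290. The same count was not made over all called events, so these numbers do not show a trait of the frame-shifting exons. At a minimum of 15 points, 392 exons were called in place of 589.

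Among exons whose libraries did not overlap, the exon of Gabbr1, which encodes a subunit of the metabotropic GABA-B receptor, rose most. Over the 8 edited libraries of a stage its PSI was 2.0, 4.1 and 6.7 at ESC (lowest, median, highest), 69.2, 89.0 and 96.0 at EB8 and 99.3, 99.9 and 100.0 at DIV7. The stages did not overlap, and the WT means were 6.1, 89.7 and 99.6. EB8 exceeded ESC by 83.1 points, and the log2 ratio of inclusion to exclusion reads by 7.32 ± 0.46 (SE, limma adjusted p = 5.61e-12). Skipping, the form with the premature stop, was thus the main form at ESC, where the gene had 8.71 to 14.17 RPKM over the 5 lines, against 223.61 to 249.46 RPKM at DIV7.

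The 31-nt exon of Srgap3, a GTPase-activating protein of Slit-Robo signalling, had a PSI of 0.0, 0.0 and 6.2 at ESC, 69.0, 79.6 and 88.2 at EB8 and 90.7, 95.3 and 97.3 at DIV7. The 103-nt exon of the same gene ran the other way, at 89.3, 100.0 and 100.0, then 15.7, 22.2 and 35.7, then 2.6, 5.3 and 9.9. So inclusion of the 31-nt exon rose as that of the 103-nt exon fell in all 4 edited lines, with no overlap between stages for either exon. Which of them stand in the same transcript was not measured. The EB8 minus ESC differences were 76.7 and -74.9 points (log2 ratio 5.72 ± 0.42 and -6.37 ± 0.41, SE, limma adjusted p = 1.91e-11 and 1.41e-12). The gene itself had 2.08 to 2.85 RPKM at ESC and 33.43 to 53.86 RPKM at EB8, and the library with the fewest reads held 12 for the 31-nt exon and 25 for the 103-nt exon.

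Other exons that rose at EB8 lay in Spag9, a scaffold of JNK signalling (31 nt, 73.9 points), in the 5' UTR of Dmtn, an actin-bundling protein (125 nt, 67.9 points), and in Calca, the calcitonin and CGRP gene (704 nt, 80.3 points). The exons of Spag9, Dmtn and Calca are not annotated. Inclusion of the Calca exon was high at 1 stage: its median PSI was 1.0 at ESC, 81.7 at EB8 and 1.3 at DIV7. The DIV7 minus EB8 difference was -79.5 points (log2 ratio -7.59 ± 0.21, SE, limma adjusted p = 7.66e-20), with no overlap between stages in either step. Spag9 had 67.2 to 96.74 RPKM at EB8, against 16.03 to 19.14 RPKM at ESC, whereas Dmtn had 3.91 to 14.08 RPKM at EB8, against 34.85 to 47.07 RPKM at ESC. Calca had 27.6 to 39.79 RPKM at ESC, 31.21 to 103.11 RPKM at EB8 and 12.5 to 33.5 RPKM at DIV7.

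Exons that fell most at EB8 lay in Enox1 (74 nt, -93.9 points), Synrg, a clathrin adaptor partner (38 nt, -83.9 points), D230017M19Rik (103 nt, -73.2 points) and Ppp1r9a, the actin-binding neurabin (88 nt, -70.5 points). The exons of Enox1 and D230017M19Rik are also without annotation. The Enox1 exon had a median PSI of 95.7 at ESC and of 0.0 at EB8. In the reading, the Synrg exon brings a premature stop when included and the Ppp1r9a exon when skipped, so that the form with the premature stop fell for Synrg and rose for Ppp1r9a. Both host genes were higher at EB8: Synrg had 16.82 to 20.87 RPKM there, against 8.53 to 9.86 RPKM at ESC, and Ppp1r9a had 8.31 to 10.07 RPKM, against 4.68 to 4.95 RPKM. Enox1 had 3.24 to 7.57 RPKM at EB8, against 28.06 to 37.17 RPKM at ESC. D230017M19Rik stayed low, at 1.45 to 2.78 RPKM at EB8 and 0.68 to 1.11 RPKM at ESC, and its library with the fewest reads held 11.

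**Figure D1:**
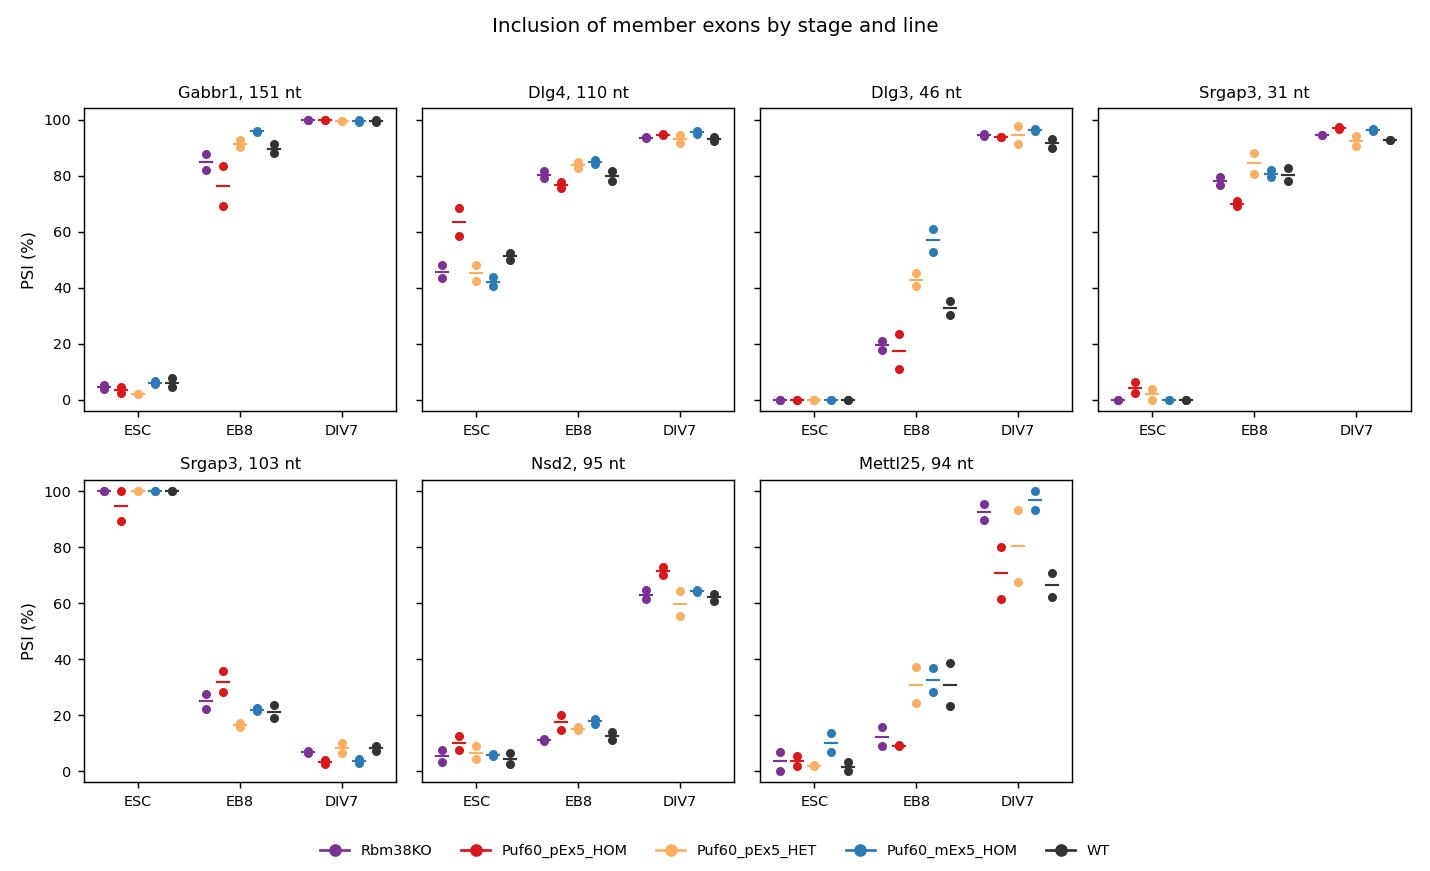
PSI in percent (y axis) of 7 named exons at ESC, EB8 and DIV7 (x axis) in the 5 lines, with a point for each of the 2 libraries of a group and a short line for their mean. The exons of Gabbr1, Dlg4 and Dlg3 and the 31-nt exon of Srgap3 rise through the stages, the 103-nt exon of Srgap3 falls, and those of Nsd2 and Mettl25 rise mostly at DIV7.

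Between embryoid bodies and neurons, again with 8 DIV7 libraries against 8 EB8 libraries, inclusion rose at 304 exons (18.2%) and fell at 394 (23.5%). All events had 10.8% called higher and 8.38% lower, and frame-preserving exons had 557 (32.3%) and 372 (21.6%). The balance of the frame-shifting exons was therefore towards skipping and that of the frame-preserving exons towards inclusion, without a test of this difference. The sets also differed in level, with a median WT PSI of 69.5 and 54.4 over their fitted exons, and the part of that level was not tested. DIV7 and EB8 libraries did not overlap at 189 of the 304 and 239 of the 394 exons, again without a count over all called events.

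The exons that rose most lay in Lrch1 (58 nt, 68.6 points), Dmd, which encodes dystrophin (28 nt, 67.0 points), Atp11b, a phospholipid flippase (86 nt, 65.1 points), Mettl25 (94 nt, 63.9 points) and Clec16a, a regulator of mitophagy (124 nt, 63 points). The exons of Lrch1 and Mettl25 are predicted poison exons, printed above, and decay of their transcripts was not measured. The Dmd exon is not annotated. PSI of the Lrch1 exon was 0.0, 0.0 and 1.1 at ESC, 2.5, 14.6 and 40.4 at EB8 and 72.7, 89.3 and 91.6 at DIV7 (lowest, median, highest of 8), and its DIV7 minus EB8 log2 ratio was 5.21 ± 0.32 (SE, limma adjusted p = 2.58e-13). The Mettl25 exon had a median of 3.8, 20.1 and 91.3 at the same stages, while the gene was at 8.7 to 10.68 RPKM, 5.25 to 6.51 RPKM and 5.89 to 6.95 RPKM. Lrch1 had 11.12 to 26.5 RPKM at DIV7, against 3.14 to 5.11 RPKM at EB8, so the stage with more inclusion of this predicted poison exon also had the higher RPKM. Clec16a likewise had 24.75 to 27.66 RPKM at DIV7, against 10.12 to 15.05 RPKM at EB8. Atp11b was lower, with 30.95 to 36.53 RPKM at DIV7, against 66.22 to 96.39 RPKM at EB8, and Dmd had 12.91 to 15.6 RPKM, against 11.25 to 14.34 RPKM.

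Exons that fell most at DIV7 lay in Etl4 (415 nt, -87.9 points), Calca, Lrrcc1, a centrosomal protein gene (206 nt, -78.2 points), Seh1l, which encodes a nuclear pore subunit (461 nt, -67.1 points), and Fam122b (136 nt, -65.0 points). The exons of Seh1l and Fam122b are not annotated, and the Etl4 exon holds the start codon. PSI of the Etl4 exon was 3.5, 7.0 and 22.4 at DIV7, against 87.2, 98.4 and 100.0 at EB8. The Lrrcc1 exon leaves a premature stop when skipped, and its median was 100.0 at ESC, 90.6 at EB8 and 10.6 at DIV7 (log2 ratio of DIV7 to EB8 -6.14 ± 0.25, SE, limma adjusted p = 7.91e-17). Lrrcc1 had 17.1 to 20.52 RPKM at DIV7, against 10.74 to 11.83 RPKM at EB8. The other host genes were lower at DIV7 or overlapped EB8: Seh1l had 20.17 to 21.87 RPKM at DIV7, against 38.05 to 46.4 RPKM at EB8, Etl4 had 7.36 to 10.86 RPKM, against 12.39 to 19.17 RPKM, and Fam122b had 3.98 to 5.28 RPKM, against 4.71 to 7.19 RPKM.

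WT cells, whose libraries chose the exons and took no part in these tests, moved the same way at nearly all of these exons. This is a description and no further support. Of the 589 exons called for EB8 against ESC, 579 (98.3%) had a WT difference of the same sign, with a median size of 18.2 points in the edited lines and 18.6 points in WT. For DIV7 against EB8 this held for 685 of 698 (98.1%), with 19.1 and 18.9 points. Over all called events of both steps the shares were 97.8% and 97.3%.

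The calls are given here by class of reading, with no test between the classes. Exons that leave a premature stop when skipped, 550 of which were fitted, were called higher in 74 (13.5%) and lower in 95 (17.3%) at EB8 against ESC, and higher in 56 (10.2%) and lower in 175 (31.8%) at DIV7 against EB8. Their median differences were -2.63 and -3.21 points, against -0.62 and -0.59 points over all fitted exons. Exons that give a premature stop when included, 103 of which were fitted, were called higher in 24 (23.3%) and lower in 11 (10.7%) at EB8, and higher in 27 (26.2%) and lower in 18 (17.5%) at DIV7, with median differences of 4.25 and 1.57 points. In both classes the form with the predicted premature stop gained at more exons than it lost. Over all events, 11% were called higher and 6.99% lower at EB8, and 10.8% and 8.38% at DIV7. Over all fitted frame-shifting exons these shares were 17.9% and 17.3%, then 18.2% and 23.5%. Exons with no premature stop in either form were called higher in 38 and lower in 58 of 220 at EB8, and higher in 50 and lower in 51 at DIV7.

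The level of inclusion in WT moved with these classes. The median WT PSI was 82.5 for exons with a premature stop on skipping and 17.9 for those with one on inclusion. Among all exons with a mean WT PSI of 70 to 90, 66 were called higher and 206 lower of 825 at DIV7 against EB8, and among those with 10 to 30, 110 were called higher and 41 lower of 395. The part of that level in the difference between the classes was not tested. Coding exons were called higher in 100 and lower in 225 of 765 at DIV7 against EB8, against 52 and 37 of 292 exons in a 5' UTR.

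**Figure D2:**
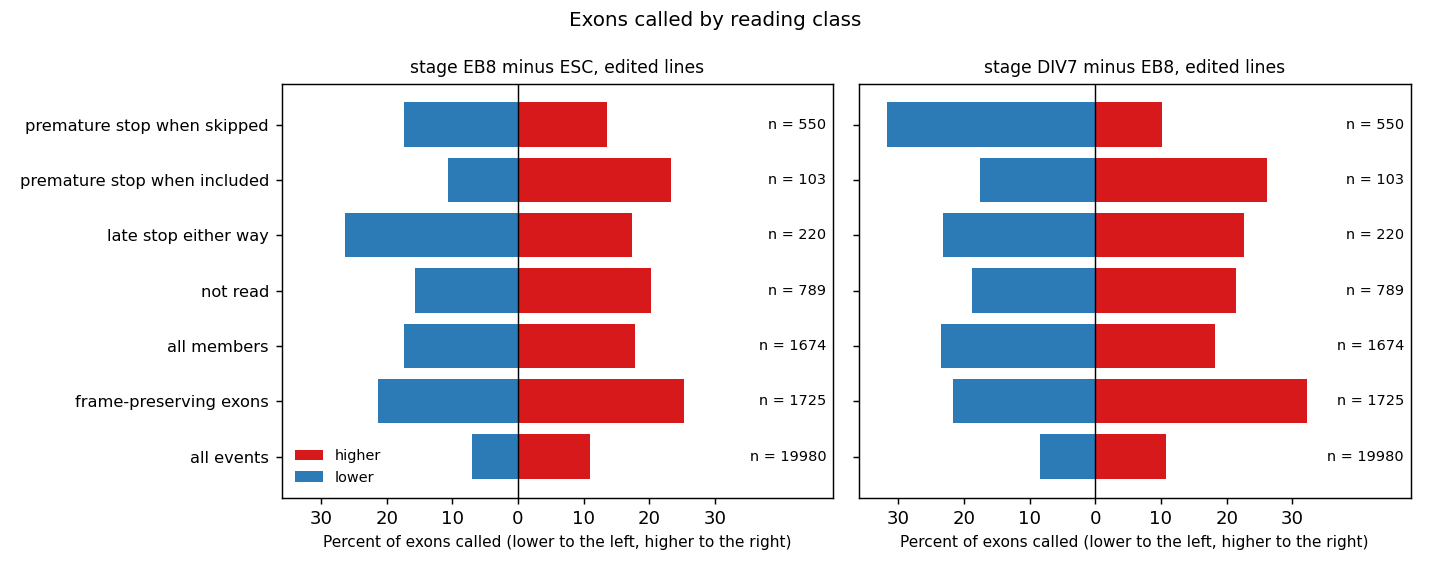
Percent of fitted exons called lower (blue, to the left) and higher (red, to the right) in each class of reading, with all fitted frame-shifting exons ("all members"), frame-preserving exons and all events below, for EB8 minus ESC (left) and DIV7 minus EB8 (right) over the edited lines. For DIV7 minus EB8, 31.8% of the exons with a premature stop on skipping were lower and 10.2% higher, while frame-preserving exons had 21.6% lower and 32.3% higher.

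Synaptic and neuronal genes held 22 of the exons in 17 of 75 listed genes, with 20 fitted. Of these, 5 rose and 8 fell at EB8 against ESC, and 9 rose and 8 fell at DIV7 against EB8. Over all fitted frame-shifting exons 17.9% rose and 17.3% fell at the first step and 18.2% and 23.5% at the second, and over all events 11% and 6.99%, then 10.8% and 8.38%. The median differences, -7.07 and -5.08 points, were below those of all fitted exons. The 110-nt exon of Dlg4, the gene of the postsynaptic scaffold PSD-95, had a PSI of 40.5, 45.9 and 68.4 at ESC, 75.5, 82.1 and 85.6 at EB8 and 91.5, 94.5 and 96.0 at DIV7 (lowest, median, highest of 8). The steps were 32.3 and 12.8 points (log2 ratio 2.18 ± 0.18 and 1.90 ± 0.11, SE, limma adjusted p = 1.5e-10 and 4.71e-14). The gene had 7.73 to 9.9 RPKM at ESC and 144.31 to 172.27 RPKM at DIV7, so the spliced form without a premature stop and the gene's RNA increased together, as in Gabbr1.

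Dlg3, which encodes the related scaffold SAP102, held a 46-nt exon that was at 0.0 in all 8 ESC libraries, at 11, 32 and 61 at EB8 and at 91.4, 94.6 and 97.6 at DIV7. At EB8 its lines were spread widely, with 21.1 and 17.6 in Rbm38KO, 23.6 and 11 in Puf60_pEx5_HOM, 45.3 and 40.5 in Puf60_pEx5_HET and 52.7 and 61 in Puf60_mEx5_HOM. Summed neuron markers at EB8 ran in the same order of line means, at 763 and 564 CPM in Rbm38KO, 612 and 532 CPM in Puf60_pEx5_HOM, 1090 and 1050 CPM in Puf60_pEx5_HET and 1180 and 1370 CPM in Puf60_mEx5_HOM, and their part in this spread was not tested. In Map4, a microtubule-associated protein gene, a 190-nt exon with a late stop in both forms fell at DIV7, to 42.1, 47.6 and 50.6, against 96.8, 97.7 and 99.3 at EB8.

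Chromatin regulators held 18 of the exons in 15 of 76 listed genes, with 16 fitted: 1 rose and 5 fell at EB8 against ESC, and 5 rose and 3 fell at DIV7 against EB8. These are 6 and 8 calls of 16, where 35.2% and 41.7% of all fitted frame-shifting exons and 18% and 19.2% of all events were called in either direction. The predicted poison exon of Nsd2, a histone methyltransferase gene, had a PSI of 3.4, 6.8 and 12.6 at ESC, 10.7, 15.2 and 20.2 at EB8 and 55.3, 64.4 and 72.8 at DIV7. DIV7 exceeded EB8 by 49.3 points (log2 ratio 3.36 ± 0.12, SE, limma adjusted p = 2.22e-18). Nsd2 had 8.67 to 17.05 RPKM at ESC, 59.18 to 69.24 RPKM at EB8 and 67.24 to 72.29 RPKM at DIV7. In spliced reads per gene, the measure used for host genes below, its log2 change at DIV7 against EB8 was -0.5 ± 0.05 (SE, limma adjusted p = 5.73e-08). That is short of the 2-fold needed for a call, and this measure fell where RPKM did not. An unannotated 83-nt exon of Tet1, a DNA demethylation enzyme gene, had medians of 0.1, 41.5 and 85.2 over the stages, while the gene was at 67.47 to 90.77 RPKM at ESC and 6.8 to 8.72 RPKM at DIV7. Hdac7, a histone deacetylase gene, held an unannotated 256-nt exon that rose by 49.0 points at DIV7 (limma adjusted p = 3.43e-15). Phf21a, a reader of unmethylated histone tails, held a 164-nt exon whose skipping leaves a premature stop and which fell at both steps, with medians of 94.0, 60.6 and 22.9.

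Splicing regulators other than SR proteins held 23 of the exons in 18 of 77 listed genes, with 19 fitted: 5 rose and 0 fell at EB8 against ESC, and 4 rose and 2 fell at DIV7 against EB8. These 5 and 6 calls of 19 stand beside 35.2% and 41.7% called among all fitted frame-shifting exons, and 18% and 19.2% of all events. Medians were 2.38 and 2.16 points. Hnrnpa2b1 held an unannotated 73-nt exon in its 3' UTR with medians of 11.4, 33.1 and 60.5 over the stages. The gene was at 446.71 to 519.07 RPKM at DIV7, against 953.83 to 1144.28 RPKM at EB8. The 40-nt coding exon of Rbfox2, a splicing factor gene, fell at DIV7 to 50.6, 66.7 and 74.4, against 88.7, 96.1 and 97.4 at EB8. Exons that hold the start codon rose in Srpk2, an SR protein kinase gene (29.3 points at EB8 and 16 at DIV7), and in Hnrnpr at DIV7 (15.4 points). The 34-nt exon of Ptbp3, a polypyrimidine tract binding protein gene, rose at EB8 by 11.9 points, and its step at DIV7 was 5.8 points (limma adjusted p = 0.0979).

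SR proteins, the serine- and arginine-rich splicing factors known for poison exons, held 1 of the exons among 13 listed genes. This 137-nt exon of Srsf4 is not annotated, and whether it brings a stop was not read. The exon had a PSI of 12.2, 14 and 16.1 at ESC, 7.1, 8.9 and 12.4 at EB8 and 15.0, 20.1 and 25.4 at DIV7. Its step at DIV7 was 11.5 points (log2 ratio 1.38 ± 0.13, SE, limma adjusted p = 1.29e-09). Srsf4 had 48.49 to 50.76 RPKM at DIV7, against 78.37 to 88.6 RPKM at EB8. The 5 exons in genes of nonsense-mediated decay and the exon junction complex, 5 of 21 listed genes, had 0 calls in either step, with medians of 2.61 and 2.33 points. Among all fitted frame-shifting exons 35.2% and 41.7% were called, and among all events 18% and 19.2%. With 5 exons, 0 calls cannot be told apart from these shares.

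Genes of the cell cycle and DNA repair held 17 of the exons in 13 of 73 listed genes, with 15 fitted: 0 rose and 4 fell at EB8 against ESC, and 2 rose and 6 fell at DIV7 against EB8, with medians of -2.63 and -4.41 points. These 4 and 8 calls of 15 compare with 35.2% and 41.7% of all fitted frame-shifting exons, and 18% and 19.2% of all events. In Rad52, a recombination gene, the exon with the start codon fell at both steps, with medians of 91.8, 50 and 37.9 over the stages. The 160-nt exon of Atr, the checkpoint kinase gene, fell at DIV7 to 65.4, 77.5 and 90.2, against 86.4, 91.7 and 92.8 at EB8, and skipping it leaves a premature stop. The exon of Mdm4, an inhibitor of p53, rose instead. Its 68-nt exon is known as the one whose skipping gives the short, unstable form, and it is printed here with the stop read on skipping in a following exon (chr1:133004654-133004721 and chr1:133003791-133003890, minus strand), where capitals mark the bases that complete the codon in the first and the stop in the second.
Mdm4 exon: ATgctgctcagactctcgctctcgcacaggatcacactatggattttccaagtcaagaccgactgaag
Mdm4 stop on skipping: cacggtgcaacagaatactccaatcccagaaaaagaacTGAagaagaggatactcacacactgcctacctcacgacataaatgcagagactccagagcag
The Mdm4 exon had a PSI of 36.1, 48.6 and 57.1 at ESC, 38.5, 47.9 and 54.5 at EB8 and 70.1, 74.9 and 80.7 at DIV7. DIV7 exceeded EB8 by 27.2 points (log2 ratio 1.66 ± 0.22, SE, limma adjusted p = 5.53e-07), and the gene had 16.71 to 18.57 RPKM at DIV7, against 22.24 to 28.47 RPKM at EB8. An unannotated 53-nt exon of Cdk2 rose at DIV7 by 16.1 points.

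The host genes were compared on spliced reads per gene, where a call again needs an adjusted p under 0.05 in limma, together with a difference of 2-fold or more. Of 1460 host genes fitted, 304 (20.8%) rose and 206 (14.1%) fell at EB8 against ESC, and over all 13870 genes 21.9% rose and 18.9% fell. At DIV7 against EB8, 209 (14.3%) rose and 188 (12.9%) fell, and over all genes 17.8% rose and 13.1% fell. Median log2 changes were 0.12 and -0.08 for host genes, against 0.03 and 0.01 for all genes. The share of rises among calls depended on scaling: it was 59.6% at EB8 and 52.6% at DIV7 with median-of-ratios factors, 81.6% and 38.6% with scaling to the total (where the median of all genes moved to 0.42 and -0.15), and 51.4% and 42.6% with quantile scaling.

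The host genes were then set beside the classes. Where an exon with a premature stop on skipping rose at DIV7 against EB8, the host gene's median log2 change was 0.44 (52 genes), and where such an exon fell it was -0.17 (148 genes), against -0.05 where no such exon was called (274 genes). Where an exon with a premature stop on inclusion rose, it was -0.41 (27 genes), and where such an exon fell it was 0.15 (18 genes), against -0.16 where none was called (58 genes). At EB8 against ESC the first class had 0.33 where the exon rose (68 genes) and 0.08 where it fell (84 genes), against 0.05 where none was called (317 genes), so hosts of exons that fell were not below those of uncalled exons. The second class had -0.06 where the exon rose (24 genes) and 0.53 where it fell (11 genes), against 0.02 (67 genes). In both steps and both classes the median was higher where the form without the premature stop gained than where it lost. Genes whose exon gives no premature stop in either form also had a higher median where the exon rose, 0.59 (37 genes) against 0.20 (56 genes) where it fell at EB8, and 0.19 (48 genes) against 0.04 (47 genes) at DIV7, and no test between the classes was made. Across exons the relation was weak: Pearson's r between the PSI difference and the host's log2 change was 0.09 and 0.08 over 548 exons of the first class, and -0.20 and -0.22 over 103 exons of the second. Exons of a gene share its value, and genes are not independent replicates, so these are descriptions.

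**Figure D3:**
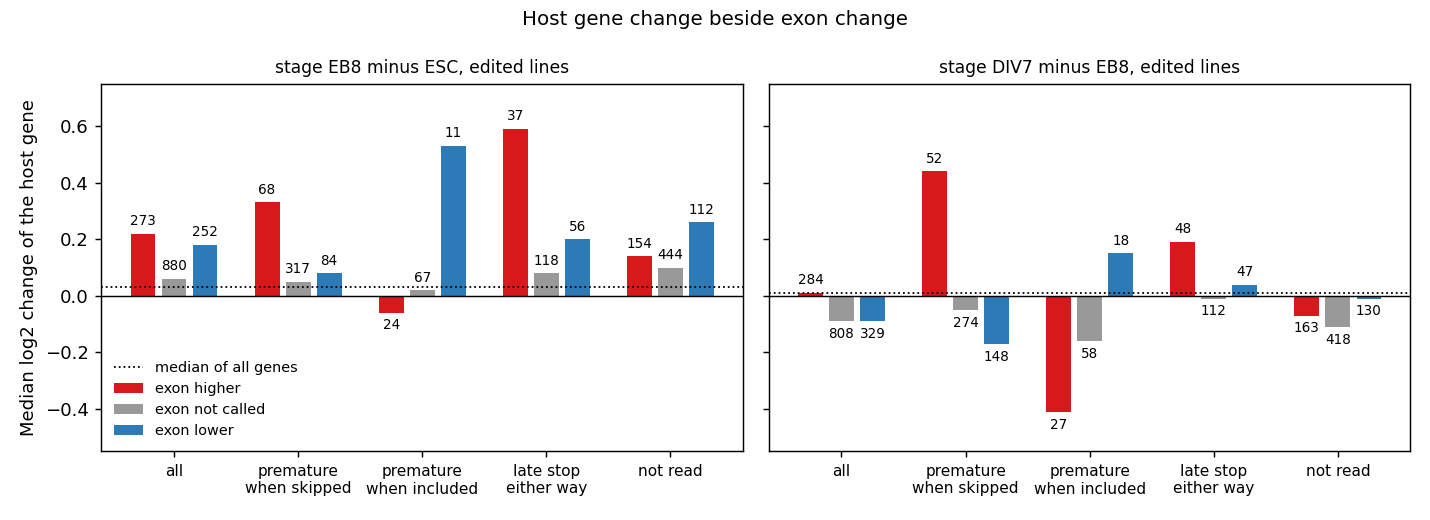
Median log2 change in spliced reads of the host genes (y axis), grouped by reading class and by whether the exon was called higher (red), not called (grey) or called lower (blue), for EB8 minus ESC (left) and DIV7 minus EB8 (right), with the number of genes at each bar and the median of all genes as a dotted line. For DIV7 minus EB8, genes with a premature stop on skipping have a median of 0.44 where the exon rose and -0.17 where it fell, and genes with one on inclusion -0.41 and 0.15.

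Among the lines, Puf60_pEx5_HOM was compared with Puf60_mEx5_HOM to ask which exons differ with Puf60 exon 5, with 6 libraries against 6 over the 3 stages. Inclusion was higher in Puf60_pEx5_HOM at 118 exons (7.05%) and lower at 136 (8.12%), and over all events 2.76% were higher and 2.82% lower. Frame-preserving exons had 190 (11%) and 128 (7.42%). Libraries of the lines did not overlap at 117 of the 118 and 134 of the 136 exons, compared within each stage and required in at least 2 of the 3. These exons were called from the same libraries, so the separation largely follows from the call and is no further support. It was not counted over all called events. At a minimum of 15 points 111 exons were called. Fibroblast markers differed between these lines, with sums of 444 and 273 CPM in Puf60_pEx5_HOM and 4230 and 1400 CPM in Puf60_mEx5_HOM at DIV7. Neuron markers at EB8 summed to 612 and 532 CPM in Puf60_pEx5_HOM and 1180 and 1370 CPM in Puf60_mEx5_HOM. The part of cell composition and of the Y-linked reads missing from Puf60_mEx5_HOM in these differences was not tested.

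Slc35b3, a transporter of sulfate donors into the Golgi, held the exon with the largest fall, a 155-nt coding exon whose skipping leaves a premature stop. In Puf60_pEx5_HOM its PSI was 6.2 and 9.1 at ESC, 10.6 and 14 at EB8 and 20 and 41.7 at DIV7. In Puf60_mEx5_HOM it was 68.4 and 51.6, 68.3 and 64.7, and 86.7 and 76.9 at these stages. All 6 Puf60_pEx5_HOM libraries lay below all 6 Puf60_mEx5_HOM libraries, and the difference was -52.5 points (log2 ratio -3.36 ± 0.39, SE, limma adjusted p = 9.06e-07). WT means were 35.9, 62.4 and 81.5 at the 3 stages, and the fewest reads in a library were 12. The gene had 4.28, 8.12 and 6.23 RPKM in Puf60_pEx5_HOM and 5.09, 11.81 and 10.29 RPKM in Puf60_mEx5_HOM.

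An unannotated 142-nt exon of Pstk, a kinase gene of selenocysteine synthesis, differed by -40.2 points (limma adjusted p = 1.15e-10). Its PSI in Puf60_pEx5_HOM was 17.8 and 23.1 at ESC, 13.2 and 21.4 at EB8 and 26.1 and 29.6 at DIV7, against 67.5 and 56.8, 55.9 and 50.2, and 69.5 and 72.2 in Puf60_mEx5_HOM. Cep57l1 held an unannotated 44-nt exon with a difference of -35.9 points (limma adjusted p = 2.62e-07). It stood at 29.1 and 29 at ESC, 32.7 and 29.9 at EB8 and 33.3 and 53.9 at DIV7 in Puf60_pEx5_HOM, against 74.7 and 73.2, 62.1 and 50.4, and 81 and 82.1 in Puf60_mEx5_HOM. For both exons the lines did not overlap within any stage. Over all 5 lines and 3 stages Pstk ranged from 19.27 to 32.01 RPKM and Cep57l1 from 4.46 to 18.33 RPKM.

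The 103-nt exon of Ogdh, which encodes a subunit of the alpha-ketoglutarate dehydrogenase of the citric acid cycle, was higher in Puf60_pEx5_HOM. There its PSI was 95.6 and 96.3 at ESC, 88.1 and 89.6 at EB8 and 61.0 and 62.8 at DIV7, against 76.8 and 80.4, 50.3 and 46.8, and 34.3 and 31.4 in Puf60_mEx5_HOM. The difference was 28.9 points (log2 ratio 2.50 ± 0.14, SE, limma adjusted p = 2.56e-12), and the exon fell along the stages in both lines. Skipping it leaves the premature stop printed above when the neighbouring exons are joined directly. RPKM of Ogdh was 81.94, 64.41 and 128.07 in Puf60_pEx5_HOM and 68.63, 56.45 and 113.91 in Puf60_mEx5_HOM.

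A 97-nt exon of Dcun1d2, a gene of cullin neddylation, was higher by 28.6 points (log2 ratio 1.91 ± 0.17, SE, limma adjusted p = 1.23e-08), with a late stop in both forms. At DIV7 it stood at 84.6 and 87.7 in Puf60_pEx5_HOM and at 47.8 and 48.2 in Puf60_mEx5_HOM, while the gene had 17.5 and 18.45 RPKM in these groups. A 91-nt exon in the 5' UTR of Flot2, which encodes a flotillin of membrane rafts, was higher by 27.9 points (limma adjusted p = 1.04e-10): at EB8 it stood at 54.7 and 51.8 in Puf60_pEx5_HOM and at 19.7 and 19 in Puf60_mEx5_HOM. Flot2 had 17.87, 30.75 and 60.62 RPKM in Puf60_pEx5_HOM and 37.87, 41.76 and 83.67 RPKM in Puf60_mEx5_HOM over the stages. Of exons already named for the stages, those of Cdk2 (15.8 points), Rbfox2 (10.8) and Hnrnpa2b1 (18.6) were higher and that of Mettl25 (-18.6) lower in Puf60_pEx5_HOM.

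**Figure D4:**
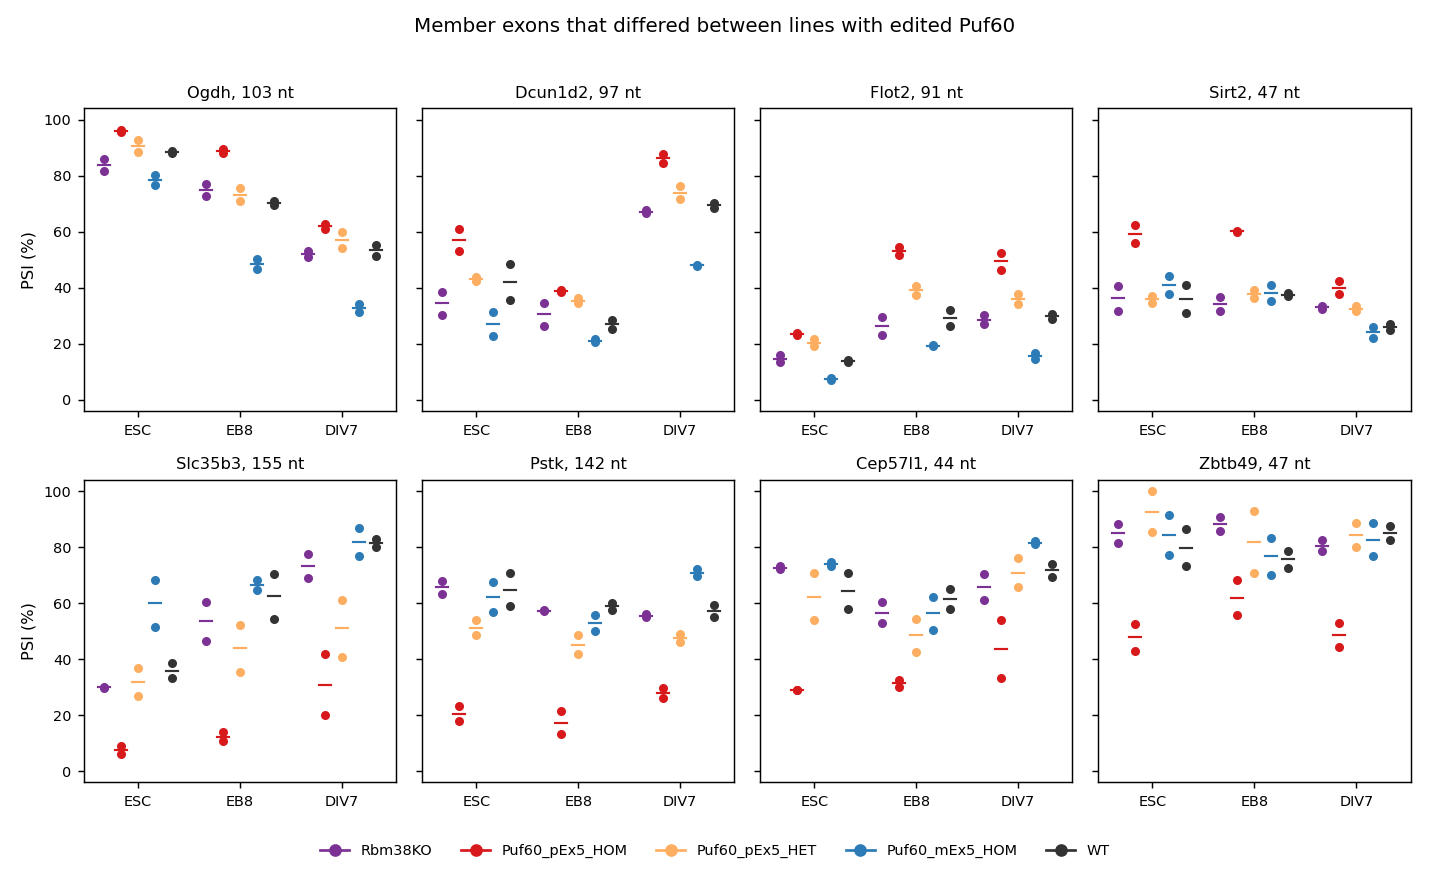
PSI in percent (y axis) of 8 exons named for the comparisons between Puf60 lines, at ESC, EB8 and DIV7 (x axis) in the 5 lines, with a point for each of the 2 libraries of a group and a short line for their mean. Puf60_pEx5_HOM (red) lies above Puf60_mEx5_HOM (blue) for Ogdh, Dcun1d2, Flot2 and Sirt2 and below it for Slc35b3, Pstk, Cep57l1 and Zbtb49 at each stage.

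The other lines lay mostly between these lines. Over the 254 exons called, the mean over stages of Puf60_pEx5_HET was between the means of Puf60_pEx5_HOM and Puf60_mEx5_HOM at 239 (94.1%), that of Rbm38KO at 219 (86.2%) and that of WT at 228 (89.8%). On a scale with Puf60_mEx5_HOM at 0 and Puf60_pEx5_HOM at 1, their median positions were 0.42, 0.32 and 0.30. Over all 1116 events called, Puf60_pEx5_HET was between at 95.4%, Rbm38KO at 88.7% and WT at 88.8%. The exons and events were called because Puf60_pEx5_HOM and Puf60_mEx5_HOM differed at them, so any other line tends to fall between.

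Puf60_pEx5_HOM was compared with Puf60_pEx5_HET, again 6 libraries against 6, and this comparison shares the Puf60_pEx5_HOM libraries with the one before. Inclusion was higher in Puf60_pEx5_HOM at 24 exons (1.43%) and lower at 31 (1.85%), with 0.566% higher and 0.851% lower over all events. Neuron markers at EB8 summed to 612 and 532 CPM in Puf60_pEx5_HOM and 1090 and 1050 CPM in Puf60_pEx5_HET, and fibroblast markers at DIV7 to 444 and 273 CPM in Puf60_pEx5_HOM and 1390 and 604 CPM in Puf60_pEx5_HET, and their part in these differences was not tested. At a minimum of 15 points 18 exons were called, and with no limit on mean PSI 26. The 47-nt exon of Zbtb49, a zinc finger gene, had a PSI of 42.9 and 52.7 at ESC, 68.2 and 55.6 at EB8 and 52.9 and 44.2 at DIV7 in Puf60_pEx5_HOM, against 100.0 and 85.4, 92.8 and 70.8, and 88.5 and 80.0 in Puf60_pEx5_HET. All Puf60_pEx5_HOM libraries were lower, the difference was -33.5 points (log2 ratio -2.56 ± 0.43, SE, limma adjusted p = 0.0005), and skipping leaves a premature stop. Zbtb49 had 5.63, 9.06 and 8.26 RPKM over the stages in Puf60_pEx5_HOM and 4.9, 9.49 and 8.02 RPKM in Puf60_pEx5_HET. The exons of Pstk and Cep57l1 were lower by 26.1 and 25.9 points.

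Sirt2, a tubulin deacetylase gene, held a 47-nt exon at 62.5 and 55.8, 60.0 and 60.1, and 37.7 and 42.3 at the 3 stages in Puf60_pEx5_HOM. In Puf60_pEx5_HET it was at 37.2 and 34.7, 39.0 and 36.4, and 31.5 and 33.3, so that Puf60_pEx5_HOM was higher at each stage, by 17.7 points on average (limma adjusted p = 9.5e-05). Skipping it leaves a premature stop, and Sirt2 had 9.38, 31.75 and 39.51 RPKM in Puf60_pEx5_HOM and 12.87, 40.43 and 39.49 RPKM in Puf60_pEx5_HET. An unannotated 46-nt exon of Bag6, a chaperone gene for membrane proteins, was higher by 15.3 points (limma adjusted p = 2.06e-07), in a gene with 140.55 to 181.74 RPKM over all groups. An unannotated 73-nt exon of 2700081O15Rik was higher by 15.9 points, with an adjusted p of 0.0404 in limma, and lost its call under several of the alternatives tried.

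Rbm38KO was compared with the mean of the 3 Puf60 lines, 6 libraries against 18. An unadjusted p under 0.05 in limma was found for 214 of 1674 exons (132 higher, 82 lower). The same held for 1564 of all 19980 events (841 higher, 723 lower), and for 795 of the 6123 exon events among them. Inclusion was called higher at 2 exons and lower at 0 of 1674, with 0.0501% higher and 0.04% lower over all events. Both exons are named after their values were seen, because they are so few. The 133-nt exon of Eps15l1, a gene of clathrin-mediated endocytosis, had a PSI of 55.9 and 50.3 at ESC, 54.7 and 48.2 at EB8 and 72.7 and 67.3 at DIV7 in Rbm38KO. It was at 28.8 and 27.5, 21.1 and 22.2, and 43.5 and 48.9 in Puf60_pEx5_HOM, at 45.0 and 45.2, 47.7 and 43.2, and 64.8 and 68.0 in Puf60_pEx5_HET, and at 40.6 and 44.5, 48.8 and 49.9, and 74.4 and 73.3 in Puf60_mEx5_HOM. WT had 58.8 and 47.3, 51.5 and 46.6, and 68.5 and 69.4. Rbm38KO lay above all Puf60 lines at ESC and overlapped Puf60_mEx5_HOM at EB8, and at DIV7 it overlapped Puf60_pEx5_HET and lay below Puf60_mEx5_HOM, and Puf60_pEx5_HOM was lowest at each stage. The difference of 11.7 points (log2 ratio 0.71 ± 0.09, SE, limma adjusted p = 0.000147) is against a mean that includes Puf60_pEx5_HOM. For the exon of Pstk it was 15.5 points (limma adjusted p = 0.000147), with 63.4 and 67.8, 57 and 57.6, and 56 and 55 in Rbm38KO, and there too Puf60_pEx5_HOM was the lowest line. At a minimum of 15 points, 1 exon was called.

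Whether the stage steps differed between Puf60_pEx5_HOM and Puf60_mEx5_HOM was fitted after the data had been seen. For the EB8 minus ESC step, 10 exons had a higher signed step in Puf60_pEx5_HOM and 12 a lower one (a smaller fall counts as higher), with 0.26% and 0.44% over all events. For DIV7 minus EB8 the counts were 20 and 17, with 1.02% and 0.4% over all events. Leaving out single libraries, which leaves a group without a replicate, moved these sums of 22 and 37 exons up and down. The counts are therefore not stable. For EB8 minus ESC the sum was 3 without replicate B of Puf60_mEx5_HOM at EB8, 5 without replicate B of Puf60_pEx5_HOM at EB8, 10 without replicate A of Puf60_mEx5_HOM at EB8, and 8 to 14 without any one of the 4 ESC libraries of these lines. For DIV7 minus EB8 it was 10 without replicate A of Puf60_mEx5_HOM at DIV7, and 10 to 24 without any one of the 4 EB8 libraries of these lines. The 46-nt exon of Bag6 was among them. At EB8 it stood at 81.8 and 84.9 in Puf60_pEx5_HOM and 41.0 and 39.9 in Puf60_mEx5_HOM, whereas at ESC the values were 87.3 and 88.8 in Puf60_pEx5_HOM and 74 and 70 in Puf60_mEx5_HOM, and at DIV7 17.9 and 17.6 in Puf60_pEx5_HOM and 10 and 9.7 in Puf60_mEx5_HOM. The EB8 minus ESC step of this exon lost its call without replicate A of either line at ESC or replicate B of either line at EB8, at 24.9 to 26.4 points, and its DIV7 minus EB8 step kept its call without each library in turn.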

How the data were processed

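Inclusion was taken from the deposited table of splicing events, in which the authors gave each library's PSI as a percentage, with a quality string that holds the reads behind it in another column, and whose columns are in the style of vast-tools per the file headers. Inclusion and exclusion reads were read from these strings, and 99.83% of PSI values matched their reads within 0.1. Host gene levels are the authors' deposited RPKM, 1 value per group; how replicates were combined is not given in the sources used here. Salmon 0.14.1, edgeR and mm10 are named in the submitters' processing notes, without their roles.

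For the 24 edited libraries, log2 of inclusion over exclusion reads, with 1 read added to each, was fitted with limma 3.58.1 in R 4.3.3 (12 group means, 12 residual degrees of freedom, precision weights) over the 19980 events that had 10 or more reads in each of these libraries and a mean PSI of 5 to 95. P-values were adjusted by Benjamini-Hochberg over all events fitted. Comparisons between stages average the 4 edited lines, and comparisons between lines average the 3 stages. Log2(CPM + 1) of spliced reads per gene, scaled by median-of-ratios factors, was fitted alike over 13870 genes with at least 1 CPM in 2 libraries. Host genes with a name numbered 1481, of which 1460 were fitted. The steps were tested on simulated data. Exons were read in GENCODE vM21 transcripts on GRCm38, the build of mm10.

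The exons, gene lists and tests were chosen with earlier results of these data known, and the lists are not independent support. The text names, per step between stages, the 5 exons with the largest called rise and fall among those whose libraries do not overlap, 1 per gene, and 3 each way per comparison of Puf60 lines (libraries apart within at least 2 stages). It adds the 4 largest called exons of each gene list, every exon of the Ptbp and Srsf genes, Tra2a, Tra2b, Dlg4 and Gabbr1 that met the rule, and the exons next to each PSI limit. One exon that this rule names is not reported here; counts over lists and named exons include it. Every column of per-library values in the table used belongs to one of the 30 libraries. A deposited table of group PSI values was not used here.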

Additional observations from a re-analysis of the deposited data

Results flagged for a closer look

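With 2 libraries a group, the limma fit of the difference in stage step between Puf60_pEx5_HOM and Puf60_mEx5_HOM called 3 differences among the named exons. Over all fitted frame-shifting exons it called 22 for EB8 minus ESC and 37 for DIV7 minus EB8. For the Bag6 exon the EB8 minus ESC step was a smaller fall in Puf60_pEx5_HOM, -4.7 against -31.6 points in Puf60_mEx5_HOM. The difference was 26.9 points (adjusted p = 0.0138). Its DIV7 minus EB8 step differed by -35.0 points, -65.5 against -30.5 points (adjusted p = 0.000492). For the Ogdh exon the DIV7 minus EB8 step differed by -11.3 points, -27.0 against -15.8 points (adjusted p = 0.0252).

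Other named exons moved in opposite directions in both libraries of each group compared, and many of these moves are small. For Puf60_pEx5_HOM minus Puf60_mEx5_HOM, some were covered by the same fit. The Dlg4 exon was at 21.4 points at ESC and -8.4 at EB8 (adjusted p of the difference in step = 0.0583), Atp11b at 14.3 at DIV7 and -0.6 at EB8 (0.205), and Phf21a at 22.4 at EB8 and -10.3 at DIV7 (0.172). The Hdac7 exon was at 15.5 at DIV7 and -1.8 at EB8 (0.434), Tet1 at 0.1 at ESC and -13.0 at EB8 (0.864), and the 31-nt exon of Srgap3 at 4.3 at ESC and -10.8 at EB8 (0.839). Between ESC and DIV7 the difference was not tested: Phf21a was at 5.8 and -10.3, Tet1 at 0.1 and -42.5, and Enox1 at -2.0 and 2.9 points.

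For steps within lines, the EB8 minus ESC step of the Cdk2 exon was -4.8 points in Puf60_pEx5_HOM and 9.2 in Puf60_mEx5_HOM (0.172), that of Cep57l1 2.2 and -17.7 (0.352), and that of Eps15l1 -6.5 and 6.8 (0.216). The following differences were not tested. In the same step Cdk2 had -4.8 points in Puf60_pEx5_HOM and 2.5 in Puf60_pEx5_HET, and Cep57l1 had -16.1 in Rbm38KO and 2.2 in Puf60_pEx5_HOM. In the DIV7 minus EB8 step Pstk had -1.8 points in Rbm38KO, 10.6 in Puf60_pEx5_HOM and 17.8 in Puf60_mEx5_HOM, and Spag9 had 3.3 in Rbm38KO and -2.0 in Puf60_mEx5_HOM.

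For Puf60_pEx5_HOM minus Puf60_pEx5_HET, where the difference was not tested either, Dlg4 had 18.2 points at ESC and -7.1 at EB8, Dmd 3.1 and -11.5, and Map4 -0.2 and 1.9. Gabbr1 had 1.4 points at ESC, -15.2 at EB8 and 0.1 at DIV7. Ptbp3 had -3.0 points at ESC and 9.8 at DIV7. The 103-nt exon of Srgap3 had 15.4 points at EB8 and -4.8 at DIV7, its 31-nt exon -14.4 and 4.5, and Fam122b -6.2 and 17.8.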

How the results depend on the processing

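The counts of called exons kept within 1.5 times under the other settings tried except as follows. At a minimum of 15 points in place of 10, the calls were 392 for EB8 against ESC, 111 for Puf60_pEx5_HOM against Puf60_mEx5_HOM, 18 for Puf60_pEx5_HOM against Puf60_pEx5_HET and 1 for Rbm38KO. With no limit on mean PSI, Puf60_pEx5_HOM against Puf60_pEx5_HET had 26. The differences in stage step between Puf60_pEx5_HOM and Puf60_mEx5_HOM, 22 and 37 exons, moved to 14 for EB8 minus ESC with 0.5 read added, and to 9 unweighted and 16 with no limit on mean PSI for DIV7 minus EB8. The cause was not tested.

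Leaving out single libraries gave 576 to 599 calls for EB8 against ESC, 681 to 703 for DIV7 against EB8, 213 to 255 for Puf60_pEx5_HOM against Puf60_mEx5_HOM, 50 to 64 for Puf60_pEx5_HOM against Puf60_pEx5_HET, and 2 to 4 for Rbm38KO, with 4 reached without replicate A of Rbm38KO at EB8. For the differences in step the ranges were 3 to 26 (3 without replicate B of Puf60_mEx5_HOM at EB8, 5 without replicate B of Puf60_pEx5_HOM at EB8) and 10 to 42 (10 without replicate B of Puf60_pEx5_HOM at EB8 or replicate A of Puf60_mEx5_HOM at DIV7). Host genes had 504 to 521 and 383 to 418 calls. Over the named exons, 103 called values were recomputed under 3350 alternatives: 3210 kept their call, 140 lost it and 0 changed sign. The call of 2700081O15Rik was lost in the unweighted fit, with no limit on mean PSI and with all 30 libraries.

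With the replicate letter as a replicate block, the calls were 592, 698, 254, 60 and 3 for the exon comparisons and 510 and 397 for host genes. The labels do not say that a letter marks a shared culture or day. Over 66 pairs of groups, deviations of same-lettered libraries correlated at -0.08 to 0.15 for splicing events (6 pairs over 0.1) and -0.27 to 0.61 for genes (16 over 0.1), so not every pair deviated together. Summed fibroblast markers were higher in replicate A than in B in all 5 lines at EB8 and at DIV7, so some genes do move with the letter. Chosen after seeing the data, exons with balanced inclusion junctions gave 520, 631, 241, 50 and 2 calls, and leaving out Puf60_mEx5_HOM gave 540 and 708 for the stages. Exons near the minimum of 10 reads give coarse PSI values, and a call missing there does not show that inclusion was unchanged.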
